A study of Mus musculus with 4 samples.

Results

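Creatine and calcium futile cycles are ways of releasing heat by spending ATP without net work, and the genes that serve them were followed here in brown and white fat of WT and ASK1-deficient mice. The group held 9 genes, chosen by name: Ckmt1, Ckmt2, Ckb, Gatm, Gamt, Slc6a8, Alpl, Atp2a2 and Ryr2. Probes carrying these names were taken from the scanner output of all 4 arrays, which gave 12 probes for the 9 genes, of 22066 genes matched to RefSeq. Ckb, Gamt and Atp2a2 had 2 probes each, the other 6 genes had 1, and each probe had 1 spot per array, none of them saturated or marked as an outlier.

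The samples were interscapular brown adipose tissue (iBAT) and epididymal white adipose tissue (eWAT) of male C57BL/6J mice aged 10 weeks. Each array held RNA pooled from 3 mice, and each combination of tissue and genotype (WT or ASK1KO) had 1 array, so no test of genotype was possible within a tissue and the spread between animals was not measured. ASK1 is a kinase that relays stress signals and is encoded by Map3k5. The ASK1-deficient mice lacked it in the whole body, not in fat alone, and the strains were bred apart, so that genotype and breeding cannot be told apart. The check of the genotype was Map3k5 itself, whose first probe read 448, 117, 701 and 194 in the order WT iBAT, ASK1-deficient iBAT, WT eWAT and ASK1-deficient eWAT, and whose second read 1081, 1082, 1264 and 836. The second probe therefore hardly differed between the iBAT pools (-0.06 on the log2 scale) and was lower in the ASK1-deficient eWAT pool (-0.51). The sources used here do not give the deleted part of the gene, and whether this probe lies outside it is not known.

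In the creatine cycle, arginine and glycine are turned into guanidinoacetate by the amidinotransferase Gatm, and Gamt methylates this to creatine. Creatine enters cells through the transporter Slc6a8 and is phosphorylated by creatine kinases, Ckmt1 and Ckmt2 in mitochondria and Ckb in the cytosol. In thermogenic fat the phosphocreatine can be hydrolysed again, a step that the phosphatase Alpl (TNAP) can carry out, so that mitochondrial ATP is used up and respiration goes on. In the calcium cycle, the pump Atp2a2 (SERCA2) carries calcium into the endoplasmic reticulum at the cost of ATP, and the channel Ryr2 lets it out. Both cycles are known as sources of heat in fat cells that do not depend on Ucp1.

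A level on an array belongs to a probe, a stretch of 60 bases that catches one stretch of a transcript. Probe positions are on mm9, as given by the scanner files. The 4 probes below, of genes that differed between the pools, were chosen after values were seen and because their sequence was judged to be coding, which was not checked against an annotation; the other probes, that of Gatm among them, are given by position only. No bases are marked, and each reads 5′ to 3′ in the sense of its gene, which lies on the minus strand.
Ckb, first probe, chr12:112908459-112909105: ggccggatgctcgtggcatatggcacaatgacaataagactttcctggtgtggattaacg
Ckb, second probe, chr12:112907787-112907846: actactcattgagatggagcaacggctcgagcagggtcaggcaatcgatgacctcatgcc
Ckmt2, chr13:91993242-91995390: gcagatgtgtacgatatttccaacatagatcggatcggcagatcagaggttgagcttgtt
Atp2a2, second probe, chr5:122910660-122910719: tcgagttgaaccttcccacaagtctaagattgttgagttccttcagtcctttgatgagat
The first Ckb probe covered 647 bases of genome and the Ckmt2 probe 2149, more than their own length, so both joined pieces that are apart in the genome, as exons are. The Ckb probes shared no position, and neither did the Atp2a2 probes, of which the first lay at chr5:122903704-122903763. Both Gamt probes, at chr10:79720903-79720962 and chr10:79720897-79720956, shared 54 positions and were therefore not separate readings of the gene. The remaining probes lay at chr2:121189414-121189473 (Ckmt1), chr2:122420814-122420873 (Gatm), chrX:70927775-70927834 (Slc6a8), chr4:137297658-137297716 (Alpl) and chr13:11645812-11645871 (Ryr2).

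Of the 12 probes, 10 were well above background on all 4 arrays, and they covered 7 of the 9 genes. Ckmt2 was well above background in iBAT only, and Ryr2 on no array. Signals are given below as deposited by the scanner software, in the order WT iBAT, ASK1-deficient iBAT, WT eWAT and ASK1-deficient eWAT. Since the 75th percentile of the signal was 356 and 371 on the iBAT arrays and 673 and 634 on the eWAT arrays, ratios were taken after each array had been divided by its own 75th percentile, and every ratio below is on that scale.

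**Figure D1:**
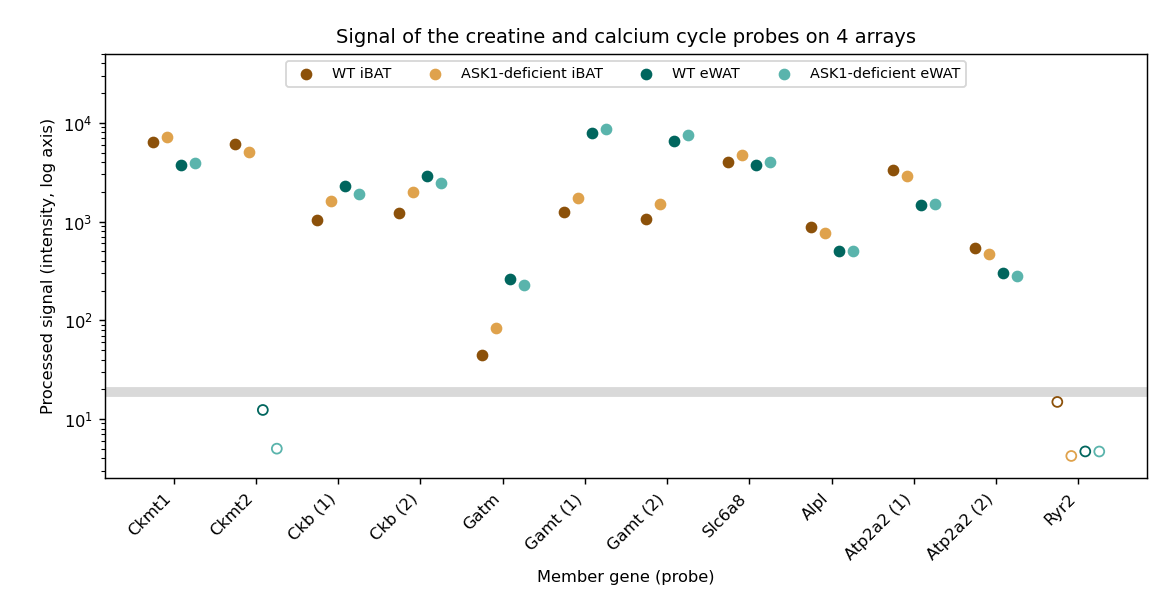
Processed signal (intensity, log axis) of the 12 probes on the 4 arrays, before scaling; numbers in brackets tell apart the probes of a gene. Filled points were well above background and open points were not; the grey band spans the lowest signal well above background on each array, 17.3 to 20.7. Ckmt2 lies at 6102 and 5008 in iBAT and under the band in eWAT, and all 4 points of Ryr2 lie under it.

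Gatm and Gamt, the enzymes that make creatine, stood lower in iBAT than in eWAT, and both were higher in ASK1-deficient iBAT than in WT iBAT. Gatm read 44.6, 83.8, 261 and 225, and WT iBAT was the lowest of the 4 pools. Between genotypes Gatm differed 1.80-fold in iBAT, 0.85 on the log2 scale, and by -0.12 in eWAT. The iBAT value was beyond the technical error: probes spotted repeatedly with signals of 30 to 300 had a median SD of the same ratio of 0.174 in iBAT (n = 91 probes). This error covers the spots of 1 array pair and not the mice. With normexp, another background correction that also adds an offset of 50 to every signal, the Gatm ratio in iBAT was 0.28. Gamt, by contrast, was bright.

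The first Gamt probe read 1247, 1752, 7858 and 8611, and the second read 1050, 1505, 6556 and 7590. On both probes the ASK1-deficient pool was above the WT pool in either tissue. As the mean over the probes, the genotype log2 ratio of Gamt was 0.44 in iBAT and 0.26 in eWAT, and the probes differed from each other by 0.029 and 0.079. Among all genes, 1.44% had a higher ratio in iBAT than Gatm and 7.82% a higher one than Gamt.

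Slc6a8, which brings creatine into the cell, differed little with genotype. It read 3986, 4722, 3762 and 4031, and its log2 ratio of ASK1-deficient to WT was 0.18 in iBAT and 0.19 in eWAT. Its signals were close to each other on all 4 arrays, so that its difference between the tissues, described below, came with the scaling.

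Among the creatine kinases, Ckb was higher in ASK1-deficient iBAT and slightly lower in ASK1-deficient eWAT. The first probe printed above read 1035, 1611, 2288 and 1892. The second read 1215, 1990, 2868 and 2434, in the same order of pools. The genotype log2 ratio was 0.58 and 0.65 on the first and second probe in iBAT, and -0.19 and -0.15 in eWAT. Over both probes it was 0.61 in iBAT, 1.53-fold, a value that 4.01% of all genes exceeded, and -0.17 in eWAT. The technical SD over repeated probes with signals over 300 was 0.071 in iBAT (n = 178 probes) and 0.047 in eWAT (n = 218 probes), and the gap between the Ckb probes was 0.073 and 0.038, so the iBAT difference was well outside both. After scaling, the level of Ckb was highest in ASK1-deficient iBAT (2.27 on the log2 scale relative to the 75th percentile), followed by WT eWAT (1.93), ASK1-deficient eWAT (1.76) and WT iBAT (1.66); the last pair stood closest.

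The mitochondrial kinases gave smaller values. Ckmt1 read 6375, 7188, 3735 and 3902, and on the log2 scale its genotypes differed by 0.11 in iBAT and 0.15 in eWAT. Ckmt2 read 6102 and 5008 in iBAT and was lower in the ASK1-deficient pool, by a log2 ratio of -0.35. In eWAT it read 12.3 and 5.003, not well above background in either pool, and no ratio was formed. Of the mitochondrial kinases, then, Ckmt1 was read in both tissues and Ckmt2 in the iBAT pools alone at the reach of these arrays. Those pools also held muscle RNA, described below, so the reading is not of brown fat cells alone.

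Alpl, the phosphatase, was a little lower in ASK1-deficient iBAT. It read 888, 763, 501 and 497, which gave -0.28 on the log2 scale between the iBAT pools and 0.08 between the eWAT pools. In eWAT its sign depended on the scaling and turned to -0.01 without any.

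The calcium pump Atp2a2 went the same way as Alpl. Its first probe read 3296, 2884, 1477 and 1502, and its second, printed above, 535, 468, 304 and 280. In iBAT the log2 ratio over both probes was -0.25, and the probes differed by only 0.0004. In eWAT it was 0.04, less than the 0.143 between the probes, and it was -0.05 without scaling. Ryr2, the release channel, read 14.9, 4.22, 4.69 and 4.68 and gave no ratio.

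**Figure D2:**
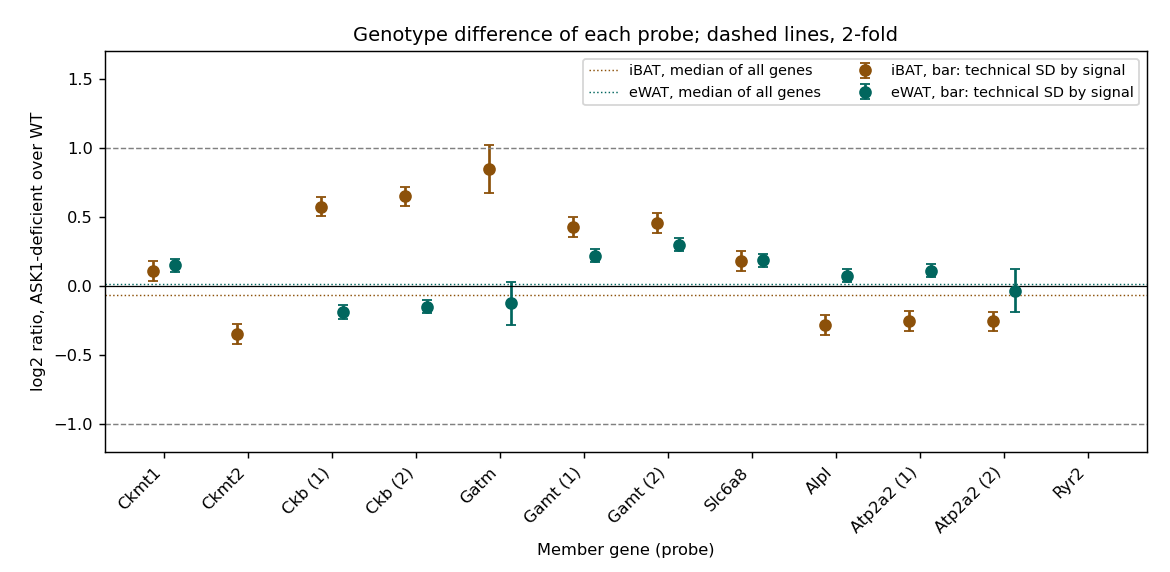
log2 ratio of ASK1-deficient to WT for each probe that was well above background on both arrays of a tissue (brown, iBAT; green, eWAT). Bars are the median SD of that ratio over repeatedly spotted probes of similar signal, a technical error; dotted lines are the medians of all genes and dashed lines mark 2-fold. Both Ckb probes and Gatm stand above 0 in iBAT and below it in eWAT, and no probe reaches 2-fold.

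Counted at 2-fold, none of the 8 members measured in iBAT and none of the 7 measured in eWAT differed between the genotypes. Over all genes, 0.835% passed 2-fold upwards and 1.02% downwards in the ASK1-deficient iBAT pool, and 0.286% and 0.865% did so in eWAT. The split of the iBAT calls moved with the scaling and the background correction: 45.1% of them were higher, against 61.8% when the 75th percentile was taken over detected probes, 54.0% with no scaling, 35.8% with normexp, 32.6% with median centring and 31.7% with the series table. At 1.5-fold, Ckb and Gatm passed in iBAT, 2 of 8 members beside 8.78% of all genes in either direction, and no member passed in eWAT, beside 4.05% of genes. Ckb fell short of 1.5-fold after median centring (0.54 on the log2 scale) and with the series table (0.53), and Gatm with normexp (0.28). The median log2 ratio of the members was 0.147 in iBAT, where that of all genes was -0.066, and 0.075 in eWAT, where it was 0.015. In iBAT the creatine makers, the transporter, Ckmt1 and Ckb lay above 0, and Ckmt2, Alpl and Atp2a2 below it.

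**Figure D3:**
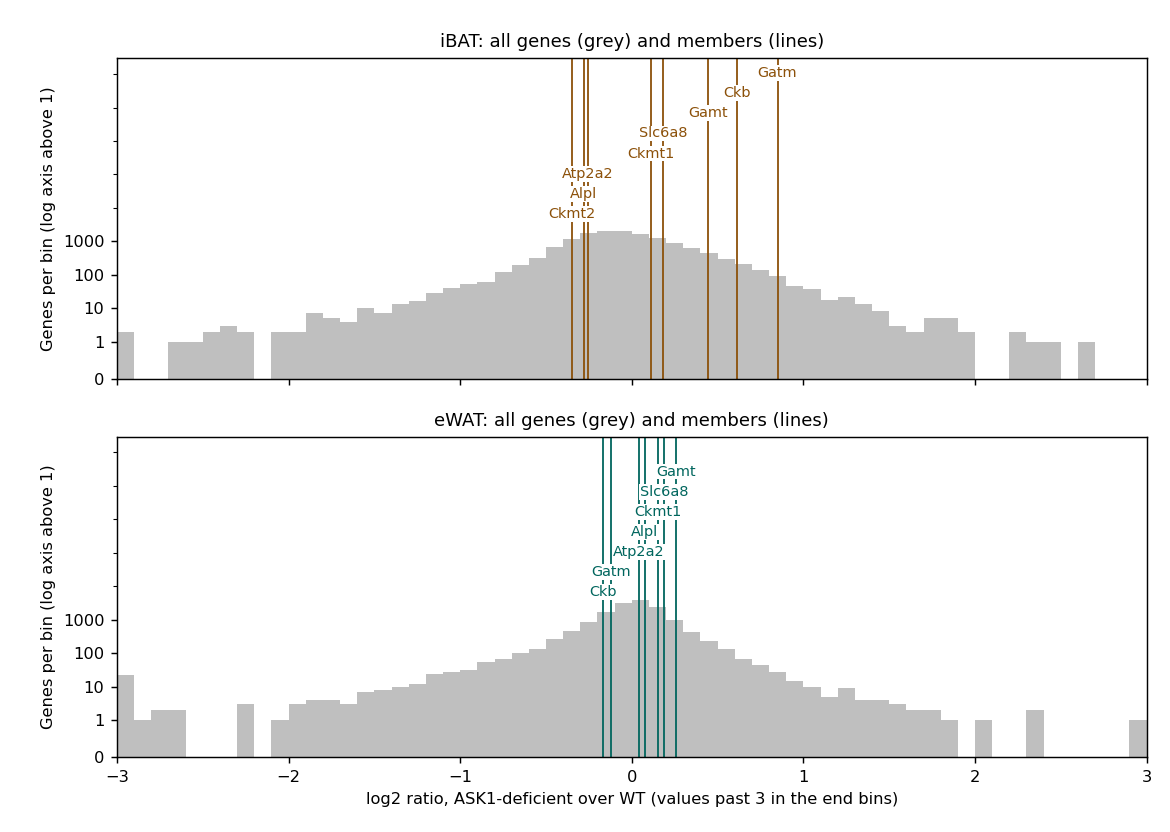
Number of genes by log2 ratio of ASK1-deficient to WT in bins of 0.1 (grey; counts on a log axis above 1, values past 3 placed in the end bins), with the measured members as lines, in iBAT (upper) and eWAT (lower). Gatm, Ckb and Gamt lie in the upper part of the iBAT distribution with 1.44%, 4.01% and 7.82% of genes above them; in eWAT all 7 members lie between -0.17 and 0.26.

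A fit over all 4 arrays, with genotype and tissue as additive terms (limma, Benjamini-Hochberg over 14057 genes), used the tissues as the replicates of genotype. It called 0 genes for genotype at adjusted p under 0.05, which is 0% of those tested, with 770 at an unadjusted p under 0.05. This count was 24 with normexp, 128 with the series table and 139 after median centring, and no member was called in any of them. The 7 members in this fit had adjusted p-values of 0.919 for Gamt and 0.984 for the other 6. The Gamt difference was 0.35 on the log2 scale (SE 0.149, 95% interval -0.01 to 0.71), and it was higher in ASK1-deficient tissue in both pairs of pools. For Ckb (0.22, SE 0.213), Gatm (0.36, SE 0.243), Alpl (-0.10, SE 0.161) and Atp2a2 (-0.11, SE 0.156) the fit averaged values whose signs differed between the tissues; whether they truly differed was not tested. With 1 residual degree of freedom the fit leaned on the spread of all genes, and a p that misses the threshold does not show that a gene was the same in both genotypes.

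Between the tissues, Ckmt1, Slc6a8, Alpl and Atp2a2 were higher in iBAT, as was Ckmt2 by the widest margin, Gatm and Gamt were lower, and Ckb was not called. In the same fit, 30.8% of all genes were called higher in iBAT and 24.6% lower, so calls were common and the sizes say more than the calls. Of the 7 members in the fit, 4 were called higher and 2 lower.

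Atp2a2 was higher in iBAT by 1.76 (SE 0.156, limma adjusted p = 0.000248), and its 3.75-fold difference in WT and 3.06-fold difference in ASK1-deficient mice put it above all but 5.16% and 5.23% of genes. Ckmt1 was higher by 1.67 (SE 0.145, limma adjusted p = 0.000228) and Alpl by 1.57 (SE 0.161, limma adjusted p = 0.000441). Within each genotype, their log2 ratios of iBAT to eWAT were 1.69 in WT and 1.65 in ASK1-deficient mice for Ckmt1, and 1.75 and 1.39 for Alpl. Ckmt1, Alpl and Atp2a2 thus stood in the same order of tissues in both genotypes. Without scaling the fitted differences were 0.91 for Atp2a2, 0.83 for Ckmt1 and 0.72 for Alpl, still called, and -2.48 for Gamt and -1.99 for Gatm. Slc6a8 was higher by 1.002 (SE 0.145, limma adjusted p = 0.00172), but its raw signals were similar, and without scaling the difference was 0.16 with a limma adjusted p of 0.314.

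Gamt was lower in iBAT by a log2 difference of -1.64 (SE 0.149, limma adjusted p = 0.000274), and Gatm by -1.14 (SE 0.243, limma adjusted p = 0.00827). The Gatm ratio of iBAT to eWAT was -1.63 in WT and -0.66 in ASK1-deficient mice, and -0.72 and -0.32 with normexp. Ckb, the cytosolic kinase, was not called: its difference was 0.12 (SE 0.213, limma adjusted p = 0.658), with a 95% interval of -0.40 to 0.64. Its log2 ratio of iBAT to eWAT was -0.27 in WT and 0.51 in ASK1-deficient mice, and the second turned to -0.26 without scaling.

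Ckmt2, whose probe is printed above, had a level in iBAT that exceeded eWAT at least 611-fold in WT mice and at least 413-fold in ASK1-deficient mice. These are lower bounds, taken against the lowest signal that was well above background on the eWAT array, and Ckmt2 was not in the fit because it was not well above background in eWAT. At 2-fold within WT, 4 of the 7 members with a ratio were higher in iBAT and 2 lower, beside 16.4% and 13.4% of all genes. Within ASK1-deficient mice 3 were higher and 1 lower, beside 12.3% and 12.6%. Slc6a8 made the difference on the higher side, at 2.005-fold in WT and 1.999-fold in ASK1-deficient mice, and Gatm on the lower side. Without scaling, 0 members were higher in iBAT and 3 lower in WT, beside 5.09% and 39.6% of all genes. In ASK1-deficient mice 0 were then higher and 2 lower, beside 4.28% and 35.6%.

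**Figure D4:**
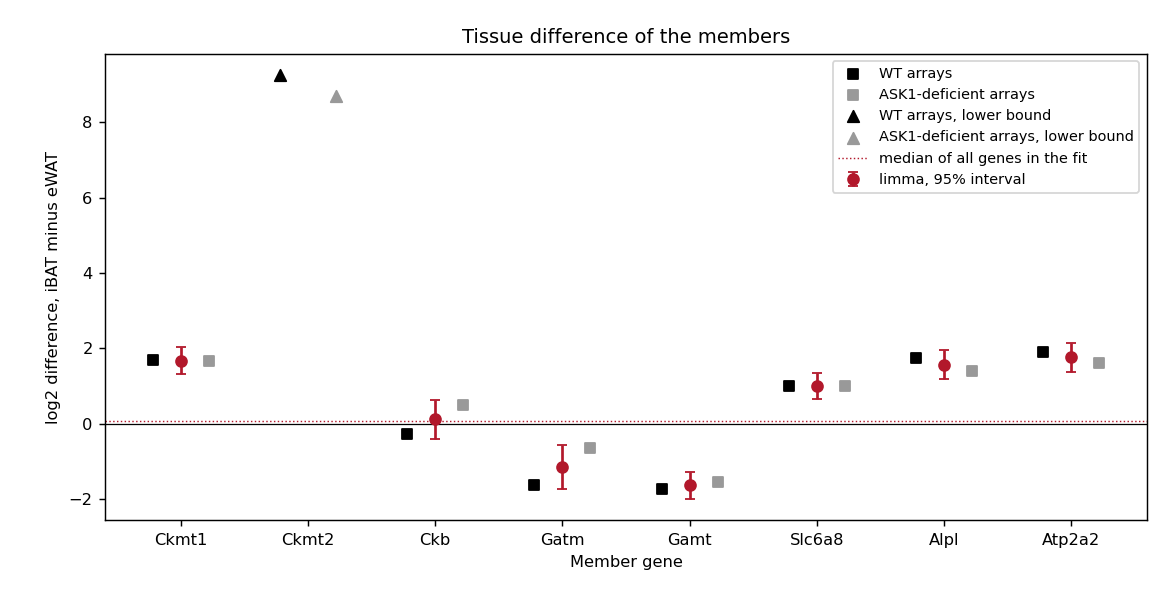
log2 difference of iBAT minus eWAT for each member: squares are the ratios within WT (black) and ASK1-deficient (grey) mice, red points the limma difference over 4 arrays with its 95% interval, triangles the lower bounds for Ckmt2, and the dotted line the median of all genes in the fit. Ckmt2, Atp2a2, Ckmt1, Alpl and Slc6a8 lie above 0, Gamt and Gatm below, and the interval of Ckb spans 0.

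Markers of other cells moved with the tissues and are given here for the members that such cells also use. The iBAT pools held transcripts of skeletal muscle, which lies under the interscapular fat and has a creatine kinase and calcium store of its own. All 29 genes of a skeletal muscle list were well above background in both iBAT pools, against 24 and 23 in eWAT, and their summed signal relative to the 75th percentile was 1635 and 1586 in iBAT and 34.1 and 30.9 in eWAT. Myh4, a fast myosin and the brightest of them, read 106463, 104259, 182 and 93.8. All 24 muscle genes measured in WT were at least 2-fold higher in iBAT, beside 16.4% of all genes. The part of muscle RNA in the levels of Ckmt2 and Atp2a2 in iBAT was not tested. Between the iBAT pools the muscle genes went both ways, 13 above and 16 below 0, with a median log2 ratio of ASK1-deficient to WT of -0.01. Named after their values were seen, Myl3 (-0.58), Myh2 (-0.52) and Myl2 (-0.34) were at the lower end, at the size of Ckmt2 or beyond it, and Myh1 (0.45) at the upper. Their part in the genotype ratios of Ckmt2 and Atp2a2 was not tested either. In eWAT the median was -0.37 over the 23 muscle genes measured in both pools. Fewer cells of a type and less RNA per cell cannot be told apart in these tissue pools.

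The muscle relatives of the members, fixed as a comparison, had the same tissue pattern. Ckm, the muscle creatine kinase, read 8242, 7909, 26.3 and 6.07, the last not well above background, and was 594-fold higher in iBAT in WT mice. Atp2a1, the fast-muscle SERCA, read 4719, 5686, 81.9 and 62.6, and its genotypes differed by 0.21 in iBAT and -0.30 in eWAT on the log2 scale. Ryr1, the muscle release channel, read 1914, 1988, 182 and 191, and its genotype ratios were -0.01 and 0.16. Ryr1 was thus the ryanodine receptor read in these tissues, since Ryr3, like Ryr2, was well above background on no array. Atp2a3, a SERCA of blood and endothelial cells, ran the other way between tissues and read 133, 166, 454 and 518.

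The SERCA inhibitors were also read. Sln (sarcolipin), which uncouples the pump from calcium transport in muscle, read 284, 545, 22.4 and 15.5. Its level was 1.84-fold higher in the ASK1-deficient iBAT pool (0.88 on the log2 scale), the highest value of the calcium list in that tissue. Pln (phospholamban) was well above background in eWAT only, at 47.8 and 26.1, a log2 ratio of -0.78. The value in the ASK1-deficient pool was near the lowest signal well above background on that array, 20.7. For scale, Ucp1, the uncoupling protein of brown fat, read 343275, 263161, 6603 and 252, and its genotypes differed by -0.44 in iBAT and -4.63 in eWAT on the log2 scale.

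The tissues carried their defining markers. All 15 genes of a brown adipocyte list were well above background in both iBAT pools, with summed relative signals of 4059 and 3403, against 58.0 and 25.1 in eWAT, and the brightest, Cidea, read 514381, 473797, 11531 and 2316. A white adipocyte list summed to 56.6 and 48.7 in iBAT and 568 and 583 in eWAT, led by Retn, with a median genotype log2 ratio of 0.41 in iBAT (4 of 6 genes above 0), and a list shared by all adipocytes to 2784, 2451, 2410 and 2466, led by Fabp4. In iBAT the brown list had a median genotype log2 ratio of -0.24, with 12 of 15 genes below 0, and the list of all adipocytes -0.28, with 8 of 10 below 0, values close to those of Ckmt2, Alpl and Atp2a2. Their part in these members' values was not tested. Macrophage genes summed to 44.8 and 57.6 in iBAT and 203 and 197 in eWAT, and 11 of 11 were higher in ASK1-deficient iBAT, with a median log2 ratio of 0.67, near the values of Ckb and Gatm there. Smooth muscle genes (38.6, 53.2, 68.3 and 60.5) had a median of 0.44 in iBAT, with 6 of 7 above 0, and endothelial genes (160, 175, 172 and 142) a median of 0.14. The part of these lists and of the white adipocyte list in the iBAT values of Ckb, Gatm and Gamt was not tested. Between the eWAT pools the medians were -0.82 for the brown list (9 of 12 genes below 0, 3 of them at least 2-fold lower, beside 0.865% of all genes), -0.20 for endothelium (7 of 9 below 0), -0.12 for smooth muscle (7 of 8 below 0) and -0.02 for macrophages (8 of 12 below 0). Ckb (-0.17) and Gatm (-0.12) were of similar size to the endothelial and smooth muscle medians there, and the part of those cells was not tested.

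The hepatocyte list differed with genotype in both tissues, and in opposite ways by the number of genes read. Of its 22 genes, 7 were well above background in the WT pool of iBAT and 16 in the ASK1-deficient pool, while in eWAT the WT pool had 22 and the ASK1-deficient pool 12. Its sum was 61.0 and 84.3 in iBAT, mostly from Kng1 (17473 and 26114), and 33.3 and 8.62 in eWAT. Alb (albumin), named after its values were seen, read 7.50, 115, 3234 and 158. Over the 7 genes measured in both iBAT pools the median log2 ratio was 0.08. In eWAT the median log2 ratio of -2.23 is over 12 genes alone and leaves out the 10 genes that were not well above background in the ASK1-deficient pool. Liver makes creatine, and the part of liver RNA in the values of Gatm and Gamt in iBAT or eWAT was not tested. Of the other lists, cardiac muscle summed to 6.15, 5.32, 4.56 and 5.20, epididymis to 4.84, 4.76, 2.90 and 2.91, neutrophils to 7.54, 6.58, 5.97 and 4.95, lymphocytes to 15.8, 13.6, 11.4 and 10.997, and nerve and Schwann cells to 35.1, 36.9, 29.9 and 26.7. The lymphocyte genes had a median genotype log2 ratio of -0.34 in iBAT, with 5 of 6 below 0, and the neutrophil genes -0.40 in eWAT, with 5 of 6 below 0.

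The neighbours of the members in their pathways were read from 3 lists. Of the genes that supply arginine and methyl groups to creatine synthesis, 16 were measured in iBAT and none differed 2-fold between genotypes, with a median log2 ratio of 0.02. At its lower end were Nnmt (-0.67), which spends methyl groups on nicotinamide, Asl (-0.42), which makes arginine, and Pemt (-0.28), which spends methyl groups on phosphatidylcholine. At its upper end were Ahcyl2 (0.47), a relative of the hydrolase of S-adenosylhomocysteine, the arginine carrier Slc7a1 (0.44) and Ass1 (0.29), which makes argininosuccinate. In eWAT 16 were measured, none was 2-fold higher and 2 were 2-fold lower, beside 0.286% and 0.865% of all genes. The lower ones were Ass1 (-1.31) and Gnmt (-1.10), a glycine methyltransferase abundant in liver. The median of that list in eWAT was -0.03, and after Ass1 and Gnmt came Slc7a1 (-0.25), with Ahcyl1 (0.19), Mat2b (0.06) and Oat (0.04) at the other end. Ass1 and Gnmt are strongly used by hepatocytes, whose list was lower in the same pool, and the part of liver RNA in them was not tested.

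The partners of Alpl in phosphate handling numbered 8 measured genes in iBAT and 9 in eWAT, and none differed 2-fold in either tissue, with median log2 ratios of -0.0015 and 0.012. In iBAT the lowest were the phosphatase Phospho1 (-0.56), the ectonucleotidase Nt5e (-0.50) and the pyrophosphate exporter Ank (-0.41), and the highest were the sphingomyelinase Smpd3 (0.82), the phosphate carrier Slc20a2 (0.36) and the ectonucleotidase Entpd1 (0.32). Smpd3 was dim in iBAT, at 27.2 and 50.1. In eWAT Enpp3 (-0.45) and the phosphate carrier Slc20a1 (-0.43) were lowest, before Entpd1 (-0.05), and Ank (0.18), Slc20a2 (0.16) and Smpd3 (0.07) highest.

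Of the other genes of calcium cycling, 36 were measured in iBAT and 35 in eWAT, and none differed 2-fold between genotypes in either, with median log2 ratios of -0.01 and 0.01. In iBAT the lowest were the kinase Camk2b (-0.70), the junctophilin Jph2 (-0.67), which holds the reticulum to the cell membrane, and the mitochondrial exchanger Letm1 (-0.61). After Sln, the highest were the plasma membrane pump Atp2b2 (0.55) and triadin, Trdn (0.40). Atp2b2 (73.3 and 112) and Jph2 (113 and 74.2) were dim in iBAT, and the other Atp2b2 probe was not well above background. In eWAT Pln was followed by the store-operated channel Orai1 (-0.43) and Jph2 (-0.40), and Camk2b (0.93), calsequestrin Casq2 (0.60) and Asph (0.33) were highest. The values of Camk2b are means of 2 probes that differed in size: its brighter probe read 1944, 1093, 114 and 283, for which the genotypes differed by -0.89 in iBAT and 1.40 in eWAT on the log2 scale, the latter past 2-fold, and the other gave -0.52 and 0.45. Between tissues, 17 of the 35 calcium genes measured in WT were at least 2-fold higher in iBAT and 3 lower, beside 16.4% and 13.4% of all genes, and in ASK1-deficient mice 13 and 4 of 34, beside 12.3% and 12.6%. Among the higher were genes of the calcium store of skeletal muscle, whose markers were higher in the same pools: Atp2a1 (6.77), Sln (4.59) and Ryr1 (4.32) on the log2 scale in WT. The part of muscle RNA in this count was not tested.

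**Figure D5:**
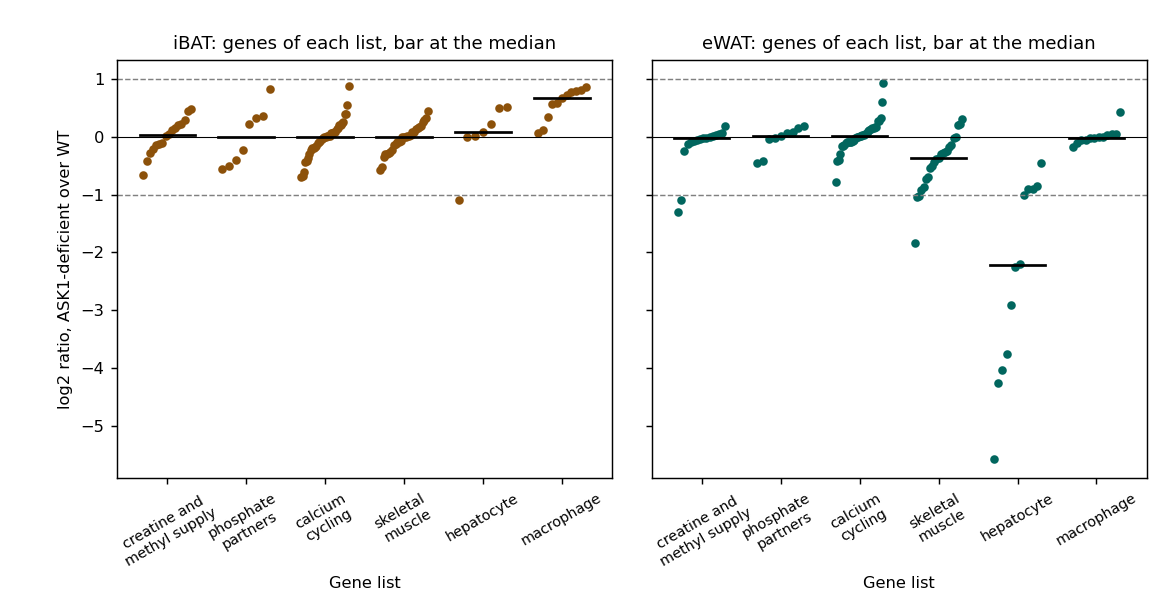
log2 ratio of ASK1-deficient to WT for each measured gene (points, sorted within a list) of the 3 pathway lists and of 3 cell type lists, in iBAT (left) and eWAT (right), with bars at the medians and dashed lines at 2-fold. The pathway lists centre on 0 in both tissues, the macrophage list lies above 0 in iBAT (median 0.67) and the hepatocyte list below it in eWAT (median -2.23 over the 12 genes measured in both pools).

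The genes whose levels ran most like a member were found by the root mean square difference of log2 levels, each centred on its mean over the 4 arrays, among 14057 genes and for members with a range of at least 1. Ckb, with a range of 0.61, was left out. Atp2a2 was matched by Pgam1, a glycolytic enzyme (0.0039), Atp5l, a part of ATP synthase (0.013), and Mrpl4, a mitochondrial ribosomal protein (0.019). Alpl was matched by the mitochondrial pyrophosphatase Ppa2 (0.013), E130215H24Rik and Olfr1368. Ckmt1 lay nearest to Padi1 (0.020), Gm33989 and Spdef, Slc6a8 to Slc35e1 (0.022), Ypel3 and Frat2, Gatm to Gal3st2 (0.036), Sema3f and Pak1, and Gamt to Gm10614 (0.037), Pyroxd2 and Gltp. With only 4 arrays such likeness is common: 720 genes lay within 0.25 of Atp2a2 and 2082 within 0.25 of Slc6a8. Among the members, Alpl and Atp2a2 lay 0.098 apart, Ckmt1 lay 0.142 from Atp2a2 and 0.150 from Alpl, and Gatm lay 0.316 from Gamt.

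Promoter windows of RefSeq (GRCm38.p6, 250 bases before to 50 after a start site) matched 7 members with 9 windows, all except Slc6a8 and Atp2a2. The 250 bases before the start are printed for Ckmt1, Ckmt2 and Alpl, members higher in iBAT that have a window, in each case the window that holds a motif where there are 2, 5′ to 3′ on the strand of the gene. Capitals mark AAGGTCA, a core bound by oestrogen-related receptors, or TGACG, a part of the cAMP response element, on either strand.
Ckmt1, plus strand, chr2:121357526-121357775: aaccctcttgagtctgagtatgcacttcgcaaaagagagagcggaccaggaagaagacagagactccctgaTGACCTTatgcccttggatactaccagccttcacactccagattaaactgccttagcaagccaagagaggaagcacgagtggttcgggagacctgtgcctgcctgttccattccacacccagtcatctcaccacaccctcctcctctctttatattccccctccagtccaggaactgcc
Ckmt2, minus strand, chr13:91876886-91877135: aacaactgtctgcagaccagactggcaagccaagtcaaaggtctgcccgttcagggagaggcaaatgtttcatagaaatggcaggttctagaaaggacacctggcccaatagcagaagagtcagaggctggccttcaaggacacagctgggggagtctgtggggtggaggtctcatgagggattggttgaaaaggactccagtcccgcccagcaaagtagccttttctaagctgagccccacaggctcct
Alpl, minus strand, chr4:137766476-137766725: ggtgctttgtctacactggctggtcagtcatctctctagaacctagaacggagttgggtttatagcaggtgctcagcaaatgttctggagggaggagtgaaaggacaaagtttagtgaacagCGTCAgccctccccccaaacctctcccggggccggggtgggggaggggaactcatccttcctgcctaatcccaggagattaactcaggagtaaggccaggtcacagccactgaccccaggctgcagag
AAGGTCA was in 1 of the 9 windows, that of Ckmt1 printed here, on the opposite strand with its first base at -179, beside 4.72% of 32851 windows in RefSeq. TGACG was in 1 of 9, the Alpl window, at -128 on the opposite strand, beside 20.8%, and the full TGACGTCA, which contains TGACG, in none, beside 1.79%. CANNTG, the E-box bound by many helix-loop-helix factors, was in 7 of 9 windows, 4 times in that of Ckmt2, and in 72.3% of all windows. The other Ckmt1 window (chr2:121358360-121358609) and the other Alpl window (chr4:137796385-137796634), not printed, hold neither AAGGTCA nor TGACG. A match describes letters and is not evidence that a factor binds.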

How the data were processed

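RNA of WT and ASK1-deficient iBAT and eWAT, each a pool of 3 mice, was hybridised to Agilent one-colour mouse arrays of 60-base probes by a service company. The deposited scanner files (Feature Extraction 10.7.3.1, per the file headers) hold the processed signal, an intensity already corrected for background, and the authors also deposited a series table of signal values, which differed from the scanner values by a constant factor on each array. Control spots and outlier-marked spots were left out, spots of a probe were averaged, and log2 values were centred on each array's 75th percentile. A probe counted where it was well above background by the software's mark; a gene was the mean of its probes that were so on both arrays compared (on all 4 in fits). Names were matched to RefSeq by symbol or unique synonym (22147 of 34844). Differences within a tissue or genotype had no test and were counted at 2-fold; fits used limma 3.58.1 (R 4.3.3) with genotype and tissue, Benjamini-Hochberg over all genes and a threshold of 0.05. Technical SDs came from probes with at least 5 spots. The scripts were tested on simulated data: 200 of 200 genes changed by 2 on the log2 scale were recovered in iBAT (14377 genes), eWAT (15377 genes) and the tissue fit (14057 genes), where 9 unchanged genes were also called. The simulated noise was technical only, with no spread between mice, and the change was larger than any genotype ratio of a member. Recovery of smaller changes was not tested. All arrays lay on the same slide, so no slide block was fitted. Precision is limited by the number of arrays.

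The members, gene lists, rules and alternatives were chosen with earlier results of these data known. The lists were brown, white and general adipocyte, skeletal, cardiac and smooth muscle, epididymis, hepatocyte, endothelium, macrophage, neutrophil, lymphocyte and nerve markers, and the creatine supply, phosphate and calcium lists. Besides all members, the text names the 3 highest and 3 lowest genes of each pathway list in each genotype comparison, the creatine kinase, SERCA, ryanodine receptor and inhibitor genes, Ucp1, Map3k5, the brightest marker of some lists and the 3 genes most like each member. The signal range for the technical SD and the sequences to print were chosen after values were seen. Protein sequences were not used here.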

Additional observations from a re-analysis of the deposited data

Results flagged for a closer look

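The genotype ratios of 2 members had opposite signs in iBAT and eWAT, each by more than 2 of the technical SDs over all repeated probes (0.087 in iBAT and 0.060 in eWAT). Gatm differed by 0.973 on the log2 scale between the tissues (0.85 in iBAT and -0.12 in eWAT), and 2.97% of 14059 genes lay at least as far apart. In eWAT its value was smaller than the technical SD of 0.156 for signals of 30 to 300, and with normexp the iBAT value was 0.28. Ckb differed by 0.781 (0.61 and -0.17), with both of its probes giving the same signs, and 5.56% of genes lay at least as far apart. With 1 array for each genotype and tissue the difference between tissues was not tested for either gene.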

How the results depend on the processing

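No paired analysis was possible because each condition had 1 array and the labels give no replicate numbers; the fit over 4 arrays did compare the tissues within genotype, and without its genotype term 4 members were still called higher in iBAT and 2 lower. No array could be left out within a comparison, and no slide block was fitted. The counts of members at 2-fold or called, over all comparisons and settings tried, stayed within 1.5 times their value in 140 cases and moved in 8. With no filter on dim probes, 1 member was counted lower in ASK1-deficient iBAT (Ryr2) and 1 in eWAT (Ckmt2), both not well above background there. At 1.5-fold, 2 members were higher in iBAT (Ckb and Gatm), and 2 were lower in iBAT than eWAT in ASK1-deficient mice. With normexp, 1 member was lower in iBAT than eWAT in WT. With no scaling, 0 members were higher in iBAT than eWAT in WT and 0 in ASK1-deficient mice, where 2 were lower; this setting moved the median of all genes by -0.92 and -0.77, so that 11.4% and 10.72% of 2-fold calls were higher in place of 55.1% and 49.4%. Ratios of single members stayed within 1 technical SD in 206 cases and moved further in 83. Fitted values of single members kept their side of the threshold in 153 cases and lost the call in 1 (Slc6a8 between tissues without scaling, 0.16), though their size could move: with normexp the Gatm tissue difference was -0.52 and its genotype difference 0.077. Counts over all genes stayed within 1.5 times in 93 cases and moved in 29. The genes at least 2-fold higher and lower in ASK1-deficient iBAT, 120 and 146, became 38 and 68 with normexp and 583 and 544 with no filter, and those in eWAT, 44 and 133, became 10 and 50, and 432 and 604. The genotype fit called 24 genes with normexp, 139 with median centring and 128 with the series table in place of 0. Taking the 75th percentile over detected probes moved the median of all genes in iBAT by 0.103. Over all settings the genotype ratio in iBAT was 0.53 to 0.72 for Ckb, 0.36 to 0.55 for Gamt and 0.28 to 0.95 for Gatm, and -0.36 to -0.18 for Alpl and -0.34 to -0.15 for Atp2a2. For Ckmt1 it was 0.03 to 0.23, for Slc6a8 0.10 to 0.29 and for Ckmt2 -0.43 to -0.22. The tissue difference of Ckb ranged from -0.73 to 0.12, with limma adjusted p-values of 0.0516 to 0.954. Where a value moved, the cause was not tested. Genes near background, Gatm among them, had the widest technical error.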
